A study of Caenorhabditis elegans with 6 samples.

Results

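Collagen genes of the cuticle were examined in whole adult Caenorhabditis elegans after culture on caffeine, a methylxanthine drug, or on plain plates. The members were all genes whose WormBase symbol begins with col- and 20 genes named for the blistered, dumpy, long, roller, squat or ray phenotypes of their mutants. Of 46904 gene IDs in the files, 175 met this rule. They were 156 col genes and 19 phenotype-named genes (bli, dpy, lon, rol and sqt). ram-4 had no matching symbol and is not analysed here. All 175 are annotated as protein-coding.

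The 3 control and 3 caffeine samples were hermaphrodites of strain N2, the wild type, with no other allele in either group. About 300 worms were pooled per sample. From the L4 stage, the last larval stage, both groups spent 72 h at 25 °C on NGM agar with OP50 bacteria, and the caffeine plates held 10 mM of the drug. They were harvested on day 3 of adulthood, and polyadenylated RNA of whole bodies was sequenced. The labels call the samples biological replicates.

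The nematode cuticle is an extracellular coat secreted by the epidermis and built largely of collagens, cross-linked proteins with long glycine-rich repeats. A new cuticle is made before each moult, and many collagen genes are switched on in waves at set times of the larval moulting cycle. Others are expressed in the adult, after the last moult. Mutations in individual collagens change body shape, which gave the phenotype-named genes their names.

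The libraries held between 40417780 and 40746556 counts, so depth was nearly equal. Yolk protein transcripts, markers of the adult hermaphrodite intestine, summed to 52700 to 57400 CPM (counts as a rate per library, adjusted with TMM factors) in control and 31700 to 54700 in caffeine libraries. None of the 6 yolk genes was at 0. Over all tested genes, the median log2 fold change was close to 0 under every library scaling that was tried, at most 0.04.

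Members were divided by their mean level over all 6 libraries. At 100 CPM or more were 10 abundant members, all of them col genes. Between 1 and 100 CPM were 58 intermediate members, of which 6 were phenotype-named. Under 1 CPM were 107 sparse members, of which 13 were phenotype-named and 3 (col-37, col-171 and col-185) had no count in any library, where a count of 0 allows up to 3 counts and covers counting error only. The filter on low counts passed every abundant and intermediate member but only 43 sparse ones, so 111 members were tested. The 64 others had a mean of at most 15.7 counts.

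Collagen transcripts took 0.206%, 0.184% and 0.189% of all counts in control libraries 1 to 3 and 0.439%, 0.349% and 0.444% in caffeine libraries 1 to 3. The means were 0.193% ± 0.0116 and 0.411% ± 0.0534 (SD, n = 3 per group). The lowest caffeine library lay well above the highest control library. The abundant members alone took 0.141% ± 0.0119 and 0.333% ± 0.0487 of counts (SD, n = 3 per group). Their summed level was 1430 ± 119 CPM in control and 3300 ± 616 CPM with caffeine, a ratio of 2.31. In RNA of whole animals, a larger epidermal share of all RNA and more collagen RNA within the epidermis cannot be told apart.

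Among the 111 tested members, 24 rose and 6 fell with caffeine at an adjusted p under 0.05 in edgeR's quasi-likelihood test, adjusted over all 14200 tested genes. Over all tested genes, 24.3% were called, 13.8% higher and 10.5% lower. Of the 111 tested members, 21 were called with a rise and 5 with a fall of at least 2-fold. Of all 14200 tested genes, 843 (5.94%) rose and 314 (2.21%) fell by as much. The count of members that fell depended on single libraries and was 2 without control library 2 and 3 without caffeine library 2. Calls were unevenly spread over the abundance classes. All 10 abundant members rose, where 7.65% of the 2666 genes in the same range rose and 13% fell. Their median log2 fold change was 1.16, against -0.05 for all genes of that range. The border of 100 CPM was set on the mean over all 6 libraries, caffeine included. col-140 and col-178 had control means of 68.0 and 56.1 CPM, so they reached this class through their caffeine values. In the intermediate class 10 of 58 rose and 4 fell, where 16.9% and 11.5% of all genes of that range did. In the sparse class 4 of 43 tested members rose and 2 fell, where 9.92% and 4.75% of all genes of that range did. The intermediate and sparse shares were therefore near the background. A sparse gene could pass the filter through the group in which it was higher, so the sparse counts describe the tested members only.

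**Figure D1:**
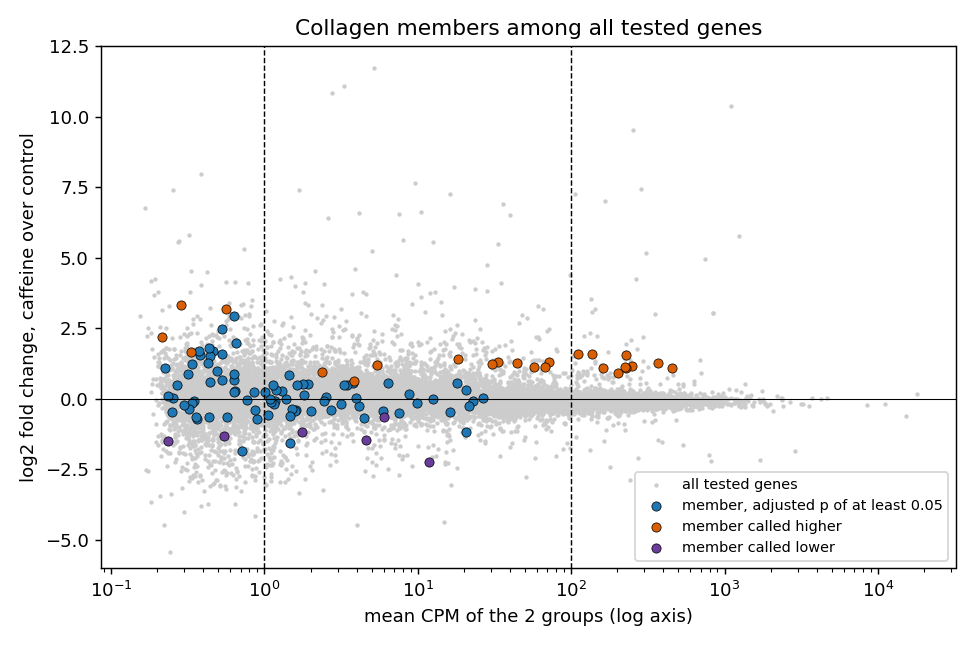
Log2 fold change of caffeine over control (vertical axis) against the mean CPM of the 2 groups (horizontal log axis) for all 14200 tested genes (grey) and the 111 tested members (coloured by call). Dashed lines at 1 and 100 CPM divide sparse, intermediate and abundant members. The 10 members right of 100 CPM all lie between 0.92 and 1.60.

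The abundant members were, by level per exon length, col-122, col-181, col-106, col-119, col-184, col-95, col-101, col-143, col-140 and col-178. They lie on chromosomes III, IV, V and X, and none lies within 5 kb of another of the 10. col-122 (chromosome IV, 9563379 to 9564441, plus strand) was the most abundant collagen gene. It stood at 281, 292 and 304 CPM in control and 741, 491 and 620 CPM in caffeine libraries 1 to 3. The groups were far apart, and its log2 fold change was 1.08 (SE 0.13, adjusted p 0.00102). Per length, its level was 443 TPM in control and 933 TPM with caffeine.

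col-181 (chromosome X, 12104930 to 12106102, plus strand) had 225, 198 and 225 CPM in control and 585, 420 and 557 CPM with caffeine. Its log2 fold change was 1.27 (SE 0.12, adjusted p 0.000312). For col-106 (chromosome IV, 1459896 to 1460786, minus strand), control values of 151, 145 and 162 CPM compared with 358, 303 and 380 CPM. Both genes were more than doubled in mean level, at ratios of 2.41 and 2.27, with a spread between replicates that was small beside the difference. col-184 (chromosome X, 13469455 to 13470409, plus strand) went from 146, 133 and 159 to 341, 254 and 335 CPM, a ratio of 2.13.

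The steepest rises of the class were those of col-140, col-178 and col-119. col-140 (chromosome V, 5835855 to 5836834, minus strand) had 81.4, 60.5 and 62.0 CPM in control and 239, 166 and 214 CPM with caffeine (log2 fold change 1.60 ± 0.15 SE, adjusted p 0.000296). col-178 (chromosome X, 11199455 to 11200467, plus strand) had 61.8, 52.6 and 54.0 CPM against 187, 139 and 177 CPM (log2 fold change 1.58 ± 0.12 SE, adjusted p 7.78e-05). col-119 (chromosome IV, 8978926 to 8979795, minus strand) had 125, 104 and 118 CPM against 387, 294 and 331 CPM (log2 fold change 1.54 ± 0.11 SE, adjusted p 7.33e-05). In all 3 genes the lowest caffeine library was above every control library. The expected counts of col-178 were not whole in any library, so reads were divided between it and similar genes.

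The other three abundant members varied more between replicates. col-101 (chromosome IV, 325435 to 327020, minus strand) had 136, 119 and 171 CPM in control and 341, 198 and 392 CPM with caffeine. col-95 (chromosome III, 11703994 to 11705091, plus strand) had 122, 129 and 168 CPM against 304, 183 and 305 CPM. col-143 (chromosome V, 6835635 to 6836704, plus strand) had 92.4 and 85.3 CPM in control libraries 1 and 2 and more in control library 3, against 254, 148 and 256 CPM with caffeine. In each of them caffeine library 2 was the lowest of its group by at least 1.5-fold and control library 3 the highest of its group, yet the groups did not overlap. Adjusted p was between 0.0114 and 0.0134. col-95 was no longer called without control library 2 or without caffeine library 3, where its adjusted p reached 0.0534 in a range from 2.00e-05 over the alternatives.

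**Figure D2:**
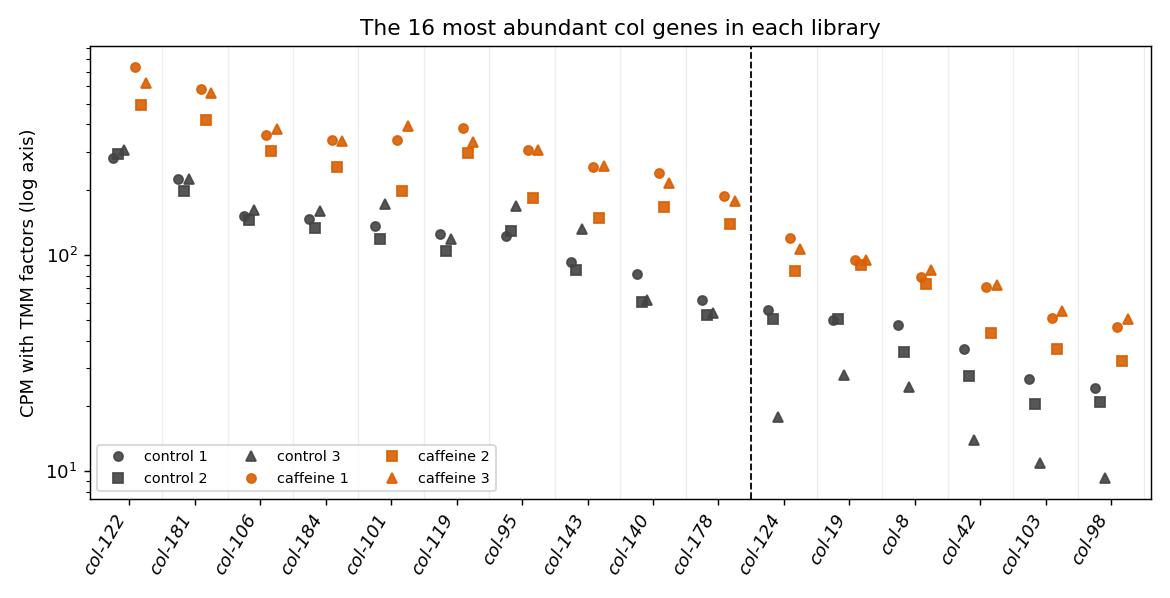
CPM with TMM factors (vertical log axis) of the 16 most abundant col genes in each library, with grey symbols for control and orange for caffeine libraries and shapes for replicate numbers. The 10 abundant members stand left of the dashed line. In every gene shown the 3 caffeine libraries lie above the 3 control libraries, and right of the line control library 3 lies below the other controls.

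Next below the 100 CPM border came 6 col genes that also rose: col-124, col-19, col-8, col-42, col-103 and col-98. Their means over all 6 libraries ran from 72.3 down to 30.7 CPM. col-19, the classical collagen marker of the adult epidermis, is on chromosome X (421707 to 422691, plus strand). It had 50.2, 50.6 and 27.9 CPM in control and 94.8, 89.8 and 94.7 CPM with caffeine (log2 fold change 1.12 ± 0.20 SE, adjusted p 0.00529). The caffeine values were nearly equal, while control library 3 was well below the other controls. col-124 (chromosome IV, 10216451 to 10217617, plus strand), the member nearest below the 100 CPM border at a mean of 72.3 CPM, had 55.5, 50.8 and 17.9 CPM against 120, 84.0 and 106 CPM. It shares 71 exon bases with qns-1 on the opposite strand, which had a mean of 5750 counts against 2940 for col-124. col-103 (chromosome IV, 762413 to 763678, minus strand) had 26.7, 20.5 and 10.9 CPM against 51.3, 36.9 and 55.1 CPM. Log2 fold changes of these 6 genes ran from 1.12 to 1.32, and their groups did not overlap. Over all tested genes, 23.3% had caffeine values wholly above control, and 20.9% wholly below.

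Control library 3 carried part of the size of these rises. Without it the log2 fold change of col-19 was 0.88, that of col-8 0.92, that of col-124 0.95 and that of col-103 1.01, and all 4 were still called. col-124 was not called in 4 of 6 leave-one-out fits (without control library 2 or any 1 caffeine library), with an adjusted p of up to 0.0794. col-42 and col-98 were not called without control library 2 or without caffeine library 3, and col-103 without caffeine library 3, where its adjusted p was 0.0524. col-8, col-42 and col-98 are named here after their values were seen.

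Among the 58 intermediate members, 18 were lowest in control library 3 by at least 1.5-fold against both other controls. Of all 8821 genes in that range, 297 (3.37%) had this pattern. The pattern was noticed in the values and not tested. Epidermal cell markers outside the collagens summed to 419, 378 and 390 CPM in control libraries 1 to 3, so control library 3 did not stand apart in this sum. Single markers differed in both directions. Control library 3 was the highest control for mua-3 (19.8, 16.8 and 25.8 CPM) and the lowest for vab-10 (186, 161 and 152 CPM). Among non-collagen cuticle and moulting genes, control library 3 was the lowest control for cut-3 (2.33, 2.77 and 0.225 CPM). It was also the lowest for cut-2 (2.38, 2.06 and 0.874 CPM) but the highest for fbn-1 (15.7, 11.3 and 16.3 CPM). elt-3, a GATA factor of the epidermis, had 4.26, 3.83 and 7.45 CPM in control and 8.43, 9.18 and 7.96 CPM with caffeine, so that control library 3 lay near the caffeine libraries. Its adjusted p was 0.0556.

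In another set of col genes, controls 1 and 2 were high and control 3 and all caffeine libraries were low. col-93 (chromosome III, 10984552 to 10985609, minus strand) had 30.7, 24.4 and 3.35 CPM in control and 4.54, 2.49 and 5.24 CPM with caffeine. It fell with a log2 fold change of -2.25 (0.68 SE, with adjusted p 0.0437), although the groups overlapped, since control library 3 was within the caffeine range. Of 6 leave-one-out fits, 1 kept the call, and this was without control library 3, at a log2 fold change of -2.76. col-20 (chromosome II, 4869670 to 4870791, minus strand) had 41.2, 39.4 and 5.30 CPM against 13.4, 7.77 and 17.3 CPM. col-129 (chromosome IV, 12108734 to 12110439, minus strand) had 3.37, 2.80 and 0.400 CPM against 1.08, 0.415 and 0.728 CPM. Neither was called, with adjusted p of 0.207 and 0.125. Without control library 3 the adjusted p of col-20 was 0.00684 and that of col-129 was 0.00950, in ranges up to 0.495 and 0.332 over the alternatives. col-20 and col-129 are named after their values were seen.

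The remaining called col genes of the intermediate class were col-179, col-117, col-38, col-183, col-118 and col-34. col-179 (chromosome X, 11201465 to 11202485, plus strand), 998 bp from col-178, had 11.7, 8.44 and 9.82 CPM in control and 26.8, 24.8 and 28.2 CPM with caffeine. Its log2 fold change was 1.41 (SE 0.12, adjusted p 0.000193), and its values, like those of col-178, were not whole in any library. col-117 (chromosome IV, 8822962 to 8824195, minus strand) fell from 5.00, 8.03 and 7.25 CPM to 2.50, 1.36 and 3.59 CPM (log2 fold change -1.45 ± 0.32 SE, adjusted p 0.0149). col-38 (chromosome II, 8568035 to 8569088, minus strand) fell from 2.45, 2.09 and 2.77 to 1.60, 0.692 and 0.995 CPM, and its call was lost in 4 of 6 leave-one-out fits (without control library 1 or 3, or caffeine library 2 or 3). col-183, col-118 and col-34 rose with log2 fold changes of 1.19, 0.64 and 0.94. The call of col-183 was lost without control library 2, control library 3 or caffeine library 3, and that of col-117 without control library 2. col-183, col-118 and col-34 are named after their values were seen, to complete the called members of this class.

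The 44 intermediate members that did not pass had log2 fold changes from -1.56 to 0.84. Among them was col-99, which encodes a transmembrane collagen of the nervous system rather than a cuticle protein, with 2.87 ± 0.425 CPM in control and 4.00 ± 0.791 CPM with caffeine (mean ± SD, n = 3 per group). Its adjusted p was 0.0996. It shares 108 exon bases with daf-1 on the opposite strand, which was the more abundant gene. col-12, a collagen gene expressed around moults, had 52.06, 30.72 and 44.23 expected counts in control and 48.17, 65.04 and 50.38 with caffeine, so the groups overlapped.

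Phenotype-named collagens were measured at much lower levels than the abundant col genes, and 2 of the 18 tested (11.1%) were called, where 24.3% of all tested genes were. dpy-14, dpy-17 and sqt-3 were the most abundant of them per length, at 29.9, 21.3 and 12.7 TPM over all libraries. dpy-14 (chromosome I, 6843589 to 6845142, plus strand) had 26.7, 22.9 and 20.9 CPM in control and 20.3, 24.2 and 14.8 CPM with caffeine. sqt-3 (chromosome V, 12352745 to 12354320, plus strand) had 15.3, 13.7 and 8.54 CPM against 17.5, 12.4 and 7.69 CPM, and its log2 fold change was 0.00 (SE 0.30). For dpy-17 (chromosome III, 5107330 to 5108492, plus strand), whose product works with that of sqt-3, values were 22.8, 18.9 and 14.8 CPM against 16, 13.8 and 11.6 CPM. The groups of all 3 genes overlapped. dpy-17 had an adjusted p of 0.0928, which ran from 0.0245 to 0.267 over the alternatives.

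The 6 furrow collagens (dpy-2, dpy-3, dpy-7, dpy-8, dpy-9 and dpy-10) form the ring-shaped grooves of the cuticle, whose loss is sensed as damage by the epidermis. dpy-10 (chromosome II, 6710149 to 6712227, minus strand) was the only one called. It had 7.53, 7.33 and 7.15 CPM in control and 5.00, 5.01 and 3.98 CPM with caffeine. The control values were almost equal and all above caffeine, with a log2 fold change of -0.65 (0.12 SE, with adjusted p 0.00753). This fall held under all 14 alternatives. dpy-10 shares 780 exon bases with T14B4.19 on the same strand, a gene with a mean of 43.0 counts against 243 for dpy-10.

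The remaining furrow genes were not called. dpy-2, which lies 2065 bp from dpy-10, had 2.63, 2.12 and 2.17 CPM against 1.73, 1.80 and 1.58 CPM, so every caffeine library was below control. Its log2 fold change was -0.44 (SE 0.18, adjusted p 0.112). dpy-7 had 1.83, 2.19 and 1.32 CPM against 1.26, 1.25 and 1.02 CPM, again with no overlap, at a log2 fold change of -0.60 (0.25 SE, with adjusted p 0.113). dpy-3 had 1.16, 1.18 and 1.02 CPM against 0.825, 0.969 and 0.243 CPM, with every caffeine library below control. The log2 fold changes of dpy-3 and dpy-9 were -0.72 and -0.40, with adjusted p of 0.257 and 0.343. dpy-8 had the opposite sign, with 6, 4 and 14 counts in control and 22, 16 and 20 under caffeine (log2 fold change 1.23 ± 0.47 SE, adjusted p 0.0886). Its adjusted p ran from 0.0327 without control library 3 to 0.249.

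**Figure D3:**
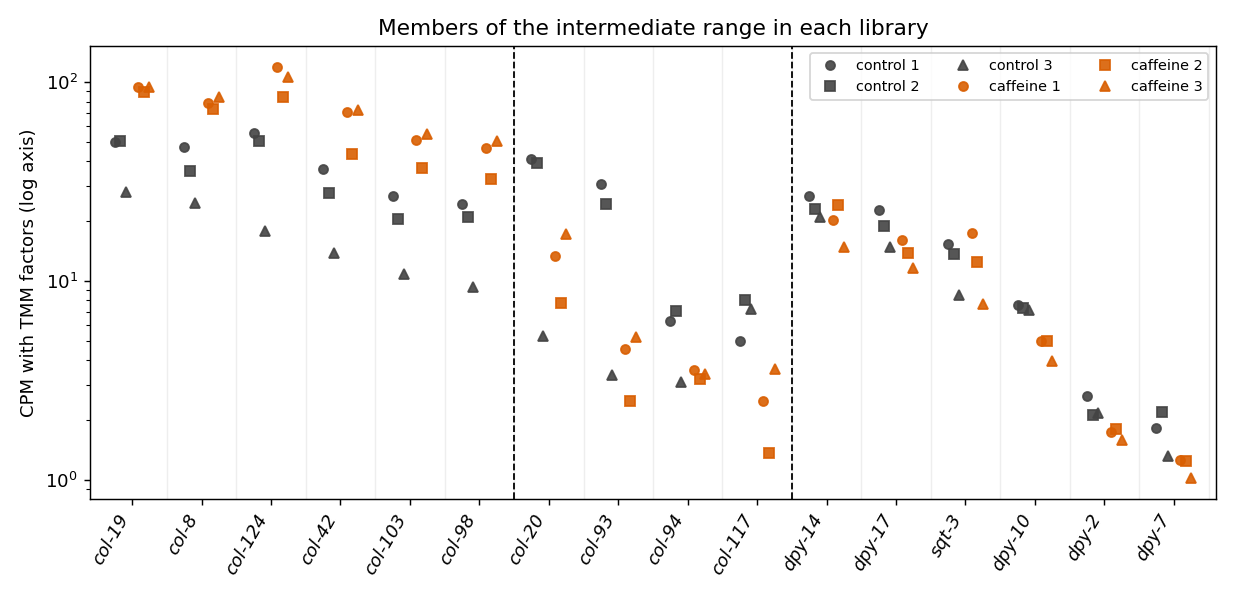
CPM with TMM factors (vertical log axis) of named members of the intermediate range in each library, with grey symbols for control and orange for caffeine libraries. Left of the first dashed line are 6 col genes that rose. Between the lines are 4 col genes with lower mean caffeine values, in which control library 3 lies with or below the caffeine libraries except for col-117. Right of the second line are phenotype-named genes, of which dpy-10 was called.

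Of the 13 sparse phenotype-named collagens, 8 were highest in control library 1 and caffeine libraries 1 and 2. sqt-1, a shape collagen whose mutants interact with those of rol-6, had 30, 0 and 0 counts in control libraries 1 to 3 and 34, 35 and 6 in caffeine libraries 1 to 3. rol-6, the source of the roller marker used in transgenic worms, had 21, 0 and 2 counts against 30, 47 and 7. dpy-13 had 17, 2 and 0 counts against 67, 40 and 2. These genes were all near 0 in control libraries 2 and 3 and low in caffeine library 3, and well above it in the other three.

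The same 3 libraries were highest for dpy-5, with 22, 1 and 4 counts against 45, 31 and 4, and for rol-8, with 20, 3 and 3 against 41, 42 and 5. dpy-4 had 15, 0 and 2 counts against 86, 46 and 3. bli-1, a strut collagen of the adult cuticle, had 12, 3 and 6 counts against 51, 11 and 7. sqt-2 had 32, 19 and 8 counts against 38, 43 and 16. None of these 8 genes was called, although their log2 fold changes ran from 0.68 to 2.95, with standard errors from 0.53 to 1.20. The groups overlapped in each of them. Without control library 1, sqt-1 and rol-6 were called higher (adjusted p 0.0265 and 0.0371), in ranges up to 0.725 and 0.517 over the alternatives. dpy-4 was called higher without caffeine library 3 (adjusted p 0.0475, in a range up to 0.258).

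In 14 of the 41 sparse members with a mean of at least 10 counts, control library 1 and caffeine libraries 1 and 2 were the 3 highest, or 34.1%. Among all genes of that range this share was 4.71%. The order was noticed in the values and not tested. It was shared by col-17, with 30.57, 0 and 1 expected counts against 59, 70 and 1, and by col-41, col-73, col-77, col-90 and col-13. Summed over the 13 sparse phenotype-named members, the counts were 276, 120 and 134 in control and 513, 415 and 127 in caffeine libraries. Caffeine library 3 was lowest of its group by at least 1.5-fold in 23 of the 41 genes (56.1%), where 15.2% of all genes of that range had it so.

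Proteins of the cuticle and of moulting other than collagens did not follow this order in sum. The 14 genes on that list summed to 90.1, 76.9 and 77.7 CPM in control and 69.9, 78 and 49.8 CPM in caffeine libraries 1 to 3. None of these genes was at 0 in all libraries. This sum was highest in control library 1 and lowest in caffeine library 3. Genes at higher levels weigh most in it, such as noah-1 at a mean of 22.2 CPM, so it describes sparse genes poorly. Early embryo genes, which would mark eggs inside the animals, summed to 10.2, 8.96 and 7.87 CPM against 6.70, 6.97 and 8.62 CPM. Of those 8 genes, 3 had a mean under 10 counts. The part of larvae or embryos in the sparse values was not tested.

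A few sparse members did separate the groups. lon-3 (chromosome V, 12197437 to 12198645, minus strand), a collagen whose loss makes worms long, had 8, 6 and 5 counts in control and 27, 21 and 14 under caffeine. Its log2 fold change was 1.66 (SE 0.40, adjusted p 0.0195), and the call was lost without control library 2, control library 3 or caffeine library 2. col-36 (chromosome II, 7167511 to 7168812, minus strand) had 2, 3 and 1 counts against 18, 22 and 25 (log2 fold change 3.32 ± 0.43 SE, adjusted p 0.00121). col-50 (chromosome I, 3651236 to 3652702, minus strand) had 4, 5 and 4 counts against 58, 36 and 30 (log2 fold change 3.19 ± 0.42 SE, adjusted p 0.00136). The rises of col-36 and col-50 held in all 13 alternatives that tested them.

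col-2, a collagen gene known from the dauer larva, had 4, 2 and 3 counts in control and 20, 12 and 11 under caffeine (log2 fold change 2.18 ± 0.46 SE, adjusted p 0.0122). col-60 fell from 26, 36 and 32 to 12, 9 and 17 counts (log2 fold change -1.33 ± 0.34 SE, adjusted p 0.0248). col-162 fell from 11, 15 and 16 to 5, 4 and 6 counts. Both col-2 and col-162 passed the filter only through the group in which they were higher. The calls of col-60 and col-162 were lost without control library 2, control library 3 or caffeine library 2, that of col-162 also without caffeine library 3, and that of col-2 without control library 2. col-2 and col-162 are named after their values were seen. bli-2, the other strut collagen listed, had 2, 5 and 4 counts against 18, 3 and 0 and was not tested. Also untested was col-7, known from adults, with 6.41, 6.68 and 6.02 expected counts against 15.03, 9.77 and 7.97. col-13 had 20.94, 17.28 and 3.77 against 16.83, 30.96 and 17.62.

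**Figure D4:**
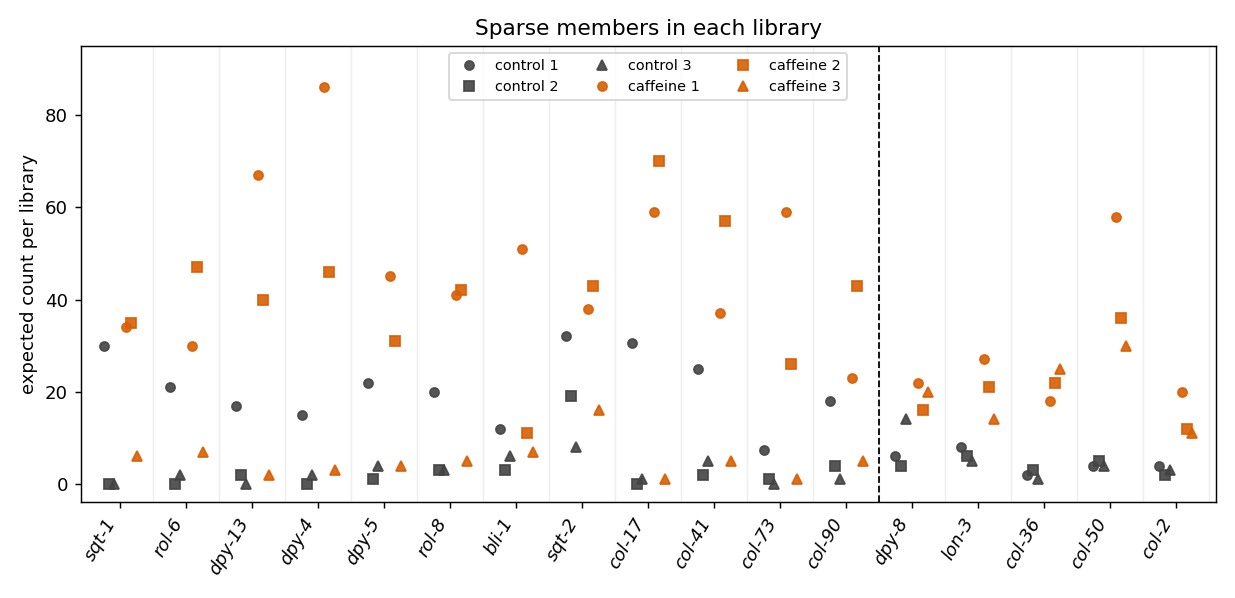
Expected counts per library (vertical axis) of sparse members, with grey symbols for control and orange for caffeine libraries and shapes for replicate numbers. Left of the dashed line are genes highest in control library 1 and caffeine libraries 1 and 2, with counts up to 86, in which the groups overlap. Right of it are 5 genes whose groups do not overlap.

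Members often sit in clusters, and 53 of the 175 lie within 5 kb of another. Neighbours did not always share a pattern. On chromosome II, col-17 (4866436 to 4867576), col-20 and col-73 (4872098 to 4873129) follow each other on the minus strand with 2094 bp and 1307 bp between them. col-20 was high in control libraries 1 and 2, whereas col-17 and col-73 were highest in caffeine libraries 1 and 2. On chromosome III, col-92, col-93 and col-94 also lie in a row on the minus strand, and all 3 had their highest values in control libraries 1 and 2. Their expected counts were not whole in at least 5 libraries, so reads were divided among similar genes, and the part of this in their likeness was not tested.

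On chromosome III, col-95 and col-96 lie on opposite strands with their 3′ ends 561 bp apart. col-95 rose, while col-96 had 3.12, 4.18 and 2.75 CPM in control and 3.33, 2.56 and 2.91 CPM with caffeine and was not called. On chromosome IV, col-117 fell, and its neighbour col-3, 588 bp away on the opposite strand, had 10.8, 7.15 and 7.12 CPM against 9.98, 12.9 and 5.12 CPM and was not called. The difference in response between neighbours was not tested. On chromosome X, both col-183 and col-184, 1691 bp apart, rose.

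Enzymes that modify, trim and cross-link collagens changed in both directions. Of 23 genes, 22 were tested, 5 rose and 4 fell, where 13.8% of all tested genes rose and 10.5% fell, and the median log2 fold change of the list was -0.09. They summed to 3100 to 3190 CPM in control and 2670 to 3010 CPM with caffeine. The prolyl 4-hydroxylase subunits, which stabilise the collagen helix, were not called. Their log2 fold changes were -0.08 for dpy-18, 0.22 for phy-2, -0.44 for phy-3 and -0.30 for pdi-2. dpy-31, an astacin metalloprotease that trims procollagens, rose from 24.7, 22.0 and 24.9 to 31.6, 37.1 and 38.9 CPM (log2 fold change 0.59 ± 0.10 SE, adjusted p 0.00388). fkb-3, a peptidyl-prolyl isomerase, rose from 11.2, 9.85 and 10.2 to 14.3, 18.2 and 16.7 CPM (log2 fold change 0.65 ± 0.11 SE, adjusted p 0.00500).

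The other rises on that list were in the system that cross-links cuticle proteins through tyrosine. The dual oxidase gene bli-3 went from 16.7, 16.5 and 15.8 to 21.4, 21.2 and 20.6 CPM, with closely spaced replicates and a log2 fold change of 0.37. Its peroxidase partner mlt-7 and the tetraspanin tsp-15 rose with log2 fold changes of 0.47 and 0.54. doxa-1, which helps the oxidase mature, had a log2 fold change of 0.62 and was not called (adjusted p 0.104). The 4 falls were in pdi-6, a protein disulphide isomerase, nas-37, a moulting protease, fkb-5, another isomerase, and tmem-131, which helps to export collagen. Their log2 fold changes were -0.42, -0.61, -0.52 and -0.30. Apart from dpy-31 and fkb-3, the called genes of this list are named after their values were seen.

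Of 5 collagen genes outside the rule, 4 were tested and 1 fell, where 10.5% of all tested genes fell. emb-9 and let-2, which encode the basement membrane collagen, had log2 fold changes of 0.13 and 0.22 and were not called. cle-1, another basement membrane collagen, fell with a log2 fold change of -0.27 (0.07 SE, with adjusted p 0.0206). Among 14 non-collagen cuticle and moulting genes, 13 were tested and 1 was called, where 24.3% of all tested genes were. The called gene was the cuticlin gene cut-6, at a log2 fold change of 0.92 (0.19 SE, with adjusted p 0.0115).

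Among 17 regulators of cuticle genes, 1 rose and 3 fell, where 13.8% of all tested genes rose and 10.5% fell. blmp-1, a zinc finger factor of the epidermis that acts on the timing of cuticle genes, rose from 9.39, 9.22 and 8.17 to 17.3, 12.8 and 15.6 CPM (log2 fold change 0.77 ± 0.13 SE, adjusted p 0.00404). Lower were nhr-23, a nuclear receptor that drives moulting, lin-42, the Period-like timer, and daf-4, a receptor of the pathway that controls body size. Their log2 fold changes were -0.19, -0.58 and -0.38.

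Among markers of epidermal cells the response was mixed. Of 10 genes, 4 rose and the rest were not called, where 13.8% of all tested genes rose. The median log2 fold change of the list was 0.00, and none of its genes was at 0. Summed, they ran from 378 to 419 CPM in control and from 453 to 515 CPM with caffeine, so the groups did not overlap. pah-1, the phenylalanine hydroxylase of the epidermis, rose from 35.9, 30.7 and 40.8 to 66.1, 77.9 and 78.4 CPM (log2 fold change 1.05 ± 0.11 SE, adjusted p 0.000491). semo-1, mup-4 and mua-6 rose with log2 fold changes of 0.73, 0.67 and 0.49, while ajm-1, vab-10, mua-3 and vab-19 were within 0.10 of 0 and not called. eff-1, a cell fusion gene, had 2.63, 2.74 and 3.70 CPM in control and 2.45, 2.35 and 1.53 CPM with caffeine, all below control, and was not called (log2 fold change -0.52, adjusted p 0.135). Its relative aff-1 had a log2 fold change of -0.17 and was not called either. The part of epidermal RNA content in the rise of the abundant collagens was not tested.

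Markers of other tissues moved as follows, where 13.8% of all tested genes rose and 10.5% fell. The 10 oocyte and eggshell genes summed to 13000 to 14200 CPM in control and 11000 to 14300 CPM with caffeine. None was called, and the smallest adjusted p was 0.194, for oma-2 at a log2 fold change of -0.19. Of 6 yolk genes 2 fell, vit-3 at -2.16 and vit-4 at -1.83. The expected counts of both were not whole in any library, so reads were divided among similar genes. Of 9 sperm genes 1 fell, gsp-4 at -2.59, and their sums of 2.69 to 25.2 CPM overlapped between the groups. Of 8 early embryo genes 5 were tested and 2 fell, tbx-37 and tbx-38, both at -0.87.

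**Figure D5:**
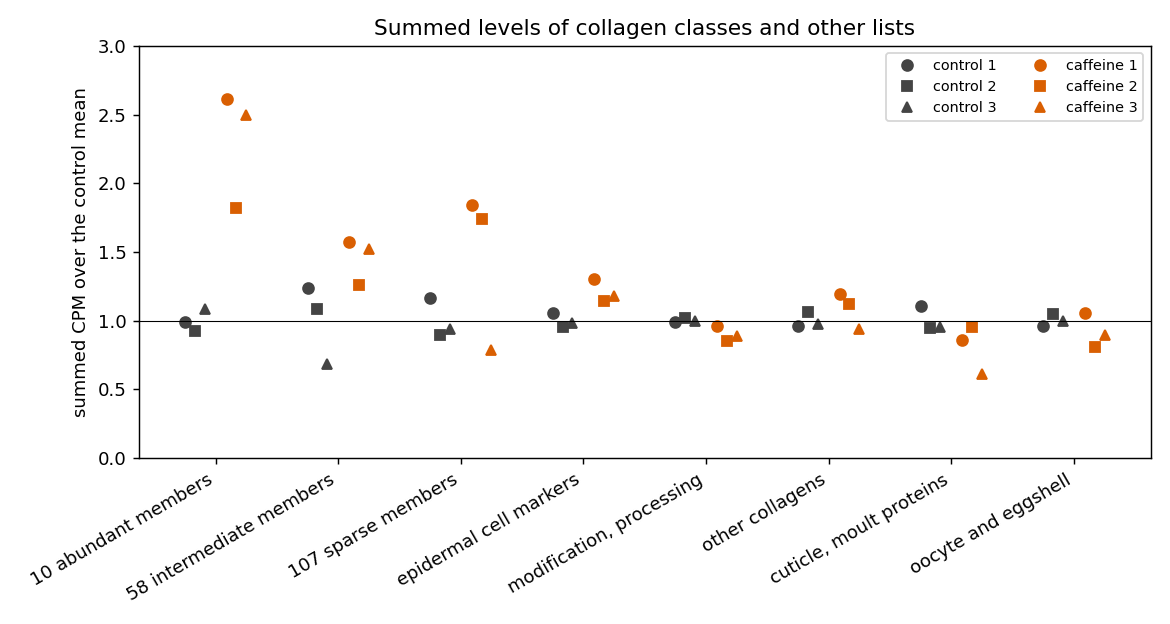
Summed CPM of each collagen class and of other gene lists in each library, divided by the mean of the 3 control libraries (vertical axis, from 0), with grey symbols for control and orange for caffeine libraries. The 10 abundant members have the largest ratio of group means among the lists shown, 2.31, and caffeine library 2 is the lowest of its group in them.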

How the data were processed

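The authors deposited 1 file of expected counts per gene for each of 6 libraries, per the file headers. These are unscaled estimates of reads, and ambiguous reads are shared out among the genes they match. STAR 2.7.0e, RSEM 1.3.1 and the build WBcel235 are named in the submitters' processing notes. Whether counting used strand, and which gene annotation, is not given in the sources used here, so overlapping genes are uncertain. Of the tested members, 27 had values that were not whole in at least 1 library. Exon bases of 21 tested members are shared with a gene holding at least 10% of their own count. The 4 called ones among these 21 are col-124, col-179, col-36 and dpy-10. Positions and exon lengths came from Ensembl release 115 of WBcel235.

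Counts were rounded, filtered with filterByExpr (minimum count 10, minimum total 15), scaled by TMM factors (0.960 to 1.07) and tested with the quasi-likelihood test of edgeR 4.0.16 in R 4.3.3, adjusted by Benjamini-Hochberg over 14200 genes. Adjusted p-values are from this test on all 6 libraries, except those given for alternatives. The alternatives were other scalings and filters, DESeq2, limma-voom, a replicate block and fits with 1 library left out. Each was adjusted over the genes it tested. SE is the size of the log2 fold change divided by the root of F. CPM uses TMM factors, and TPM was computed from expected counts and exon length. On simulated counts for this comparison (14200 genes), 69.7% of 2-fold and 92.7% of 4-fold changes were recovered. Only 195 changed genes passed the filter there, far fewer than were called here, and all levels were pooled. These rates therefore do not describe the sparse members. Members and lists were chosen with earlier results of these data known. Genes named by rule were the tested phenotype-named members, the 10 most abundant col genes and the leading genes of each other list. The rule also took the 8 largest rises and all falls among called col genes averaging at least 10 counts. col-7, col-12, col-13, col-19 and col-99 were included for their known stage or type. Other genes in the text, such as elt-3, eff-1, col-17 and col-96, were named with their values known.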

Additional observations from a re-analysis of the deposited data

How the results depend on the processing

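Over 14 alternatives, 17 of the 30 called members stayed past the threshold wherever they were tested, and no called gene changed sign. Of 52 tested genes named by rule, 34 kept their call throughout. sqt-3, at a log2 fold change of 0.00, changed sign in 7 alternatives without being called. With 1 library left out, between 17 and 26 members rose and between 2 and 7 fell. In abundance classes these ranges were 9 to 10 and 0 to 0 for abundant, 6 to 10 and 2 to 7 for intermediate, and 2 to 6 and 0 to 2 for sparse members. With 1 library of the group left out, the group mean of the collagen share ran from 0.187% to 0.197% in control. In caffeine it ran from 0.394% to 0.441%. Intermediate rises numbered 6 without control library 2 and 6 without caffeine library 3. Intermediate falls numbered 2 without control library 1, 2 without control library 2 and 7 without control library 3.

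A mean of at least 50 counts removed sparse members, so 0 rose and 0 fell. Sparse falls numbered 1 without a filter and 1 in DESeq2. With abundance borders at 50 and 2 CPM, 13 abundant members rose, 7 intermediate members rose and 3 sparse members fell. The labels do not say whether control and caffeine libraries of the same number were paired. Deviations from the group means correlated at -0.183, -0.155 and 0.249 for libraries of the same number. For libraries of different number they ran from -0.339 to 0.433. With 3 libraries per group, these values cannot decide whether the libraries were paired. With the replicate number as a block, 25 members rose and 4 fell, all 10 abundant members among the rises, and sparse falls numbered 0. dpy-13 was called only with this block (log2 fold change 2.76, adjusted p 0.0240). Few counts limit the sparse members, and the causes of these shifts were not tested.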
